A study of Mus musculus with 12 samples.

Results

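Liver RNA of mice on a high fat diet (HFD) was compared with liver RNA of mice on a normal fat diet (NFD), across all expressed genes. The 2 groups hold 4 libraries each, 8 of the 12 samples of the study. Genes of the deposited gene table entered when they reached 1 TPM, a share of a library's transcripts corrected for their length, in at least 4 of the 12 libraries, which left 11376 of 19252 genes. At this floor 17 genes had 1.0 TPM in the library that decided, the fourth highest of the 12, and 1 of them passed the test below, while 20 genes stood just outside at 0.99 TPM. All mice were C57BL/6, the feeding lasted 14 weeks, and the age label reads 8 weeks without saying when it was taken. A further group of 4 was fed the same high fat diet with N-acetylcysteine in its water at 2 g/L. It enters here through the filter over 12 libraries, the shared estimate of the spread and a few single values given below. Liver pieces hold hepatocytes together with immune, vessel and bile duct cells. In such tissue, fewer cells of a type and less RNA per cell cannot be told apart. Nothing in the labels says that the 4 samples of a group came from separate animals, so p-values measure the spread between these samples only.

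The liver is the organ where dietary fat, amino acids and drugs meet. Hepatocytes take up fatty acids, activate them to acyl-CoA, and then burn them in mitochondria and peroxisomes, store them as triglyceride in droplets, or export them on lipoproteins. Lipid-sensing nuclear receptors of the PPAR family, the xenobiotic receptors PXR and CAR, thyroid hormone and growth hormone set the level of many of these enzymes, and the enzymes are laid out in zones from the portal vein to the central vein. Long feeding of a high fat diet to this mouse strain is a standard way to produce fatty liver, in which changes of immune and interferon genes have also been described.

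The defining hepatocyte transcript Alb, albumin, did not pass (log2 change -0.03 ± 0.17 SE, adjusted p = 0.942), and 0 of 12 hepatocyte markers passed the test. TPM keeps no read counts, so the depth of the libraries is unknown, and a value of 0 is reported as listed at 0. Between 10958 and 11316 genes per library reached 1 TPM. HFD had 101.5 more on average, a difference within the spread (exact two-sided permutation test, p = 0.229, where 4 against 4 libraries can reach 0.0286). The lncRNA share of a library was 1.71 points lower in HFD on average (exact permutation p = 0.229), and the mitochondrial share was 0.166 points higher (exact permutation p = 0.886).

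With limma on log2(TPM + 1), 249 genes were higher and 67 lower in HFD at an adjusted p under 0.05, 2.19% and 0.589% of the 11376 tested, together 316 or 2.78%. The counts of list and family members called below are to be read against these shares. All fold changes below are differences of group means on that scale, which understates the ratio for genes of low level, and all adjusted p-values are from limma with Benjamini-Hochberg adjustment over the 11376 genes. The median log2 fold change was 0.67 among the genes called higher and -0.61 among those called lower, against 0.01 over all tested genes. Changes of 1 or more on the log2 scale were reached by 44 of the 249 and by 8 of the 67. A further 49 genes differed as much and did not pass. The share of genes called was larger at higher levels, from 2.21% under 2 TPM to 5.60% between 50 and 100 TPM and 4.10% at 100 TPM or more. The plot of fold change against level shows both ends, Cyp2b9 and Car3 above and Cyp2c69 and Igfbp2 below.

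**Figure D1:**
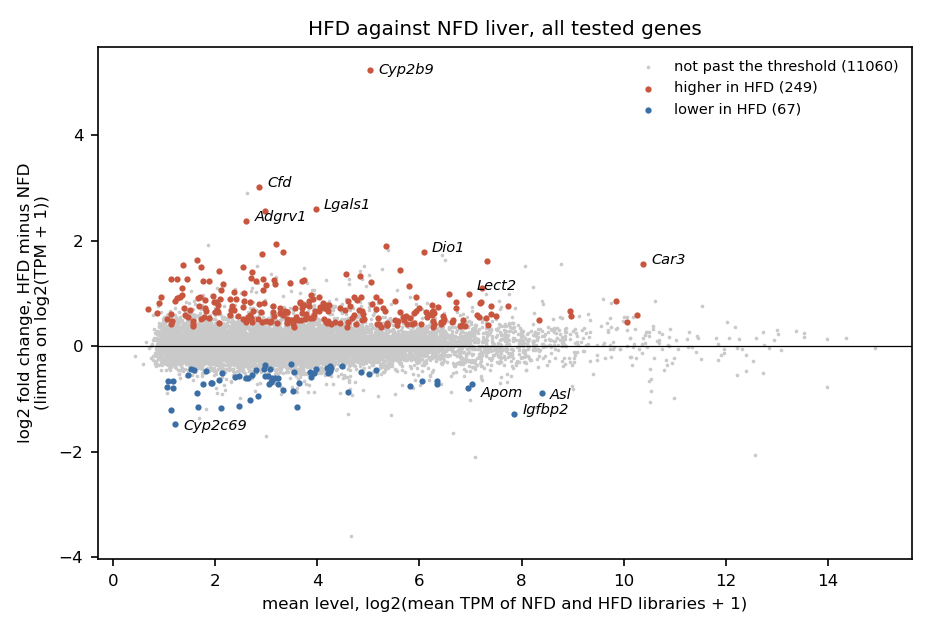
Log2 fold change of HFD against NFD (vertical axis, limma on log2(TPM + 1)) against mean level (horizontal axis, log2 of mean TPM of the 8 libraries + 1) for the 11376 tested genes. Red points are the 249 genes higher and blue points the 67 genes lower at an adjusted p under 0.05; the remaining genes are grey, and some of them lie as far from 0 as coloured ones.

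Groups that do not overlap were common beyond these calls. In 885 genes (7.78%) the 4 HFD libraries all exceeded the 4 NFD libraries, and in 520 (4.57%) all lay under them. Among the called genes this held for 244 of 249 and 64 of 67. How many genes passed depended on single libraries. The count of 316 was 90 without HFD replicate 1, 97 without HFD replicate 4, 129 without HFD replicate 2, 142 without NFD replicate 1, and between 224 and 298 without each of the others. HFD replicate 3 was the HFD library nearest to NFD in 138 of the 249 higher genes. Each of the 8 could be left out in turn without loss of the call in 65 higher and 9 lower genes. These 74 genes also passed under 3 other scalings and with the replicate number as a block. All these fits used the same filter over 12 libraries, which Cyp2c69 and Mogat1 among the 74 met through a single group. The split of directions depended on scaling, with 280 higher and 119 lower under median-of-ratios scaling, 259 and 160 under quantile normalization, and 188 and 99 when TPM were rescaled within the gene table.

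**Figure D2:**
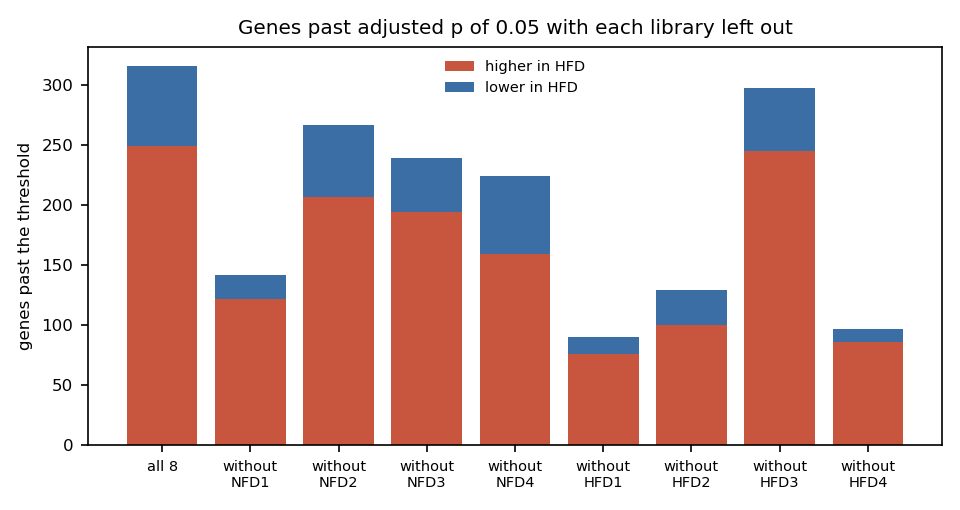
Number of genes past an adjusted p of 0.05 (vertical axis) with all 8 libraries and with each HFD or NFD library left out (horizontal axis), higher in HFD in red and lower in blue. The bars range from 90 without HFD replicate 1 to 316 with all libraries.

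The smallest p-values belonged to an adhesion receptor, a thyroid hormone enzyme and a P450. Adgrv1, a very large adhesion G-protein coupled receptor known from hearing and vision (chromosome 13, 81095068 to 81633391, build GRCm38, protein coding like the genes that follow), was at 1.37, 0.89, 0.81 and 0.77 TPM in NFD replicates 1 to 4 and at 8.65, 9.54, 7.46 and 11.4 TPM in HFD. The lowest HFD library thus lay above 5 times the highest NFD library. Adgrv1 rose (log2 change 2.38 ± 0.21 SE, adjusted p = 8.99e-05). Dio1, the type 1 deiodinase that makes the active thyroid hormone from thyroxine (chromosome 4, 107291465 to 107307168), was at 27.8, 38.7, 21.1 and 32.3 TPM in NFD and 96.6, 92.99, 106 and 119.8 TPM in HFD. No HFD library came within the NFD range, and Dio1 rose (log2 change 1.78 ± 0.16 SE, adjusted p = 8.99e-05). Cyp2c69, a cytochrome P450 (chromosome 19, 39842660 to 39886769), was at 2.43, 2.42, 1.78 and 2.95 TPM in NFD and at 0.27, 0.29, 0.19 and 0.12 TPM in HFD. It fell in all HFD libraries to a level far under 1 TPM (log2 change -1.47 ± 0.12 SE, adjusted p = 8.99e-05). Of the 12 libraries only those of NFD reached 1 TPM. Cyp2c69 thus met the floor through NFD alone, and the separation of its groups followed from the filter.

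Next came a transporter and a secreted protein. Slc13a3, the sodium-coupled carrier of citric acid cycle intermediates (chromosome 2, 165405295 to 165473197), was at 2.52, 3.11, 2.15 and 3.26 TPM in NFD and 7.8, 6.98, 7.49 and 10.9 TPM in HFD (log2 change 1.30 ± 0.13 SE, adjusted p = 3.24e-04). Its highest HFD value was in replicate 4, and the other 3 lay close together. Lect2, a hepatokine released by hepatocytes (chromosome 13, 56529734 to 56548559), was at 82.5, 89.5, 69.1 and 89.4 TPM in NFD and at 166, 166, 160.4 and 166 TPM in HFD (log2 change 0.995 ± 0.10 SE, adjusted p = 3.24e-04). The HFD values lay close together, and the NFD values were far below them. Apom, the apolipoprotein that carries sphingosine-1-phosphate on HDL (chromosome 17, 35128997 to 35131801), was at 159, 160.1, 173 and 158 TPM in NFD and 95.4, 92.5, 108 and 97.6 TPM in HFD. It was the 1 of 23 tested apolipoproteins that passed, and it fell (log2 change -0.72 ± 0.08 SE, adjusted p = 8.55e-04).

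Among the less abundant genes Sema5b, a semaphorin, was at 0.56, 0.44, 0.14 and 0.43 TPM in NFD and 2.16, 2.39, 2.72 and 2.19 TPM in HFD (log2 change 1.28 ± 0.14 SE, adjusted p = 5.75e-04). Osbpl5, a lipid transfer protein of the oxysterol-binding family, was at 0.9, 0.99, 1.08 and 1.8 and 3.89, 4.38, 4.47 and 3.74 TPM (log2 change 1.24 ± 0.15 SE, adjusted p = 0.00108). Gpc1, the heparan sulfate proteoglycan glypican-1, was at 2.67, 3.24, 2.63 and 4.09 and 8.31, 10.7, 7.55 and 8.72 TPM (log2 change 1.24 ± 0.16 SE, adjusted p = 0.0028). The HFD and NFD libraries of all 3 were apart. Cryzl2, of the quinone oxidoreductase-like family, ranged over 7.32 to 8.77 TPM in NFD and 13.96 to 16.2 TPM in HFD (adjusted p = 5.56e-04), and Ccng2, cyclin G2, over 1.7 to 1.96 TPM in NFD and 3.66 to 4.57 TPM in HFD (adjusted p = 0.0028). Lyplal1, a lysophospholipase-like protein chosen after its values were seen, ranged over 3.47 to 4.88 TPM in NFD and 6.92 to 9.0 TPM in HFD (adjusted p = 0.00283). The calls of Adgrv1, Dio1, Cyp2c69, Slc13a3, Lect2, Apom, Sema5b, Osbpl5, Gpc1, Cryzl2, Ccng2 and Lyplal1 held without any 1 of the 8 libraries. The leave-outs used the same filter, which Cyp2c69 met through NFD alone, so its kept call adds no separate support.

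**Figure D3:**
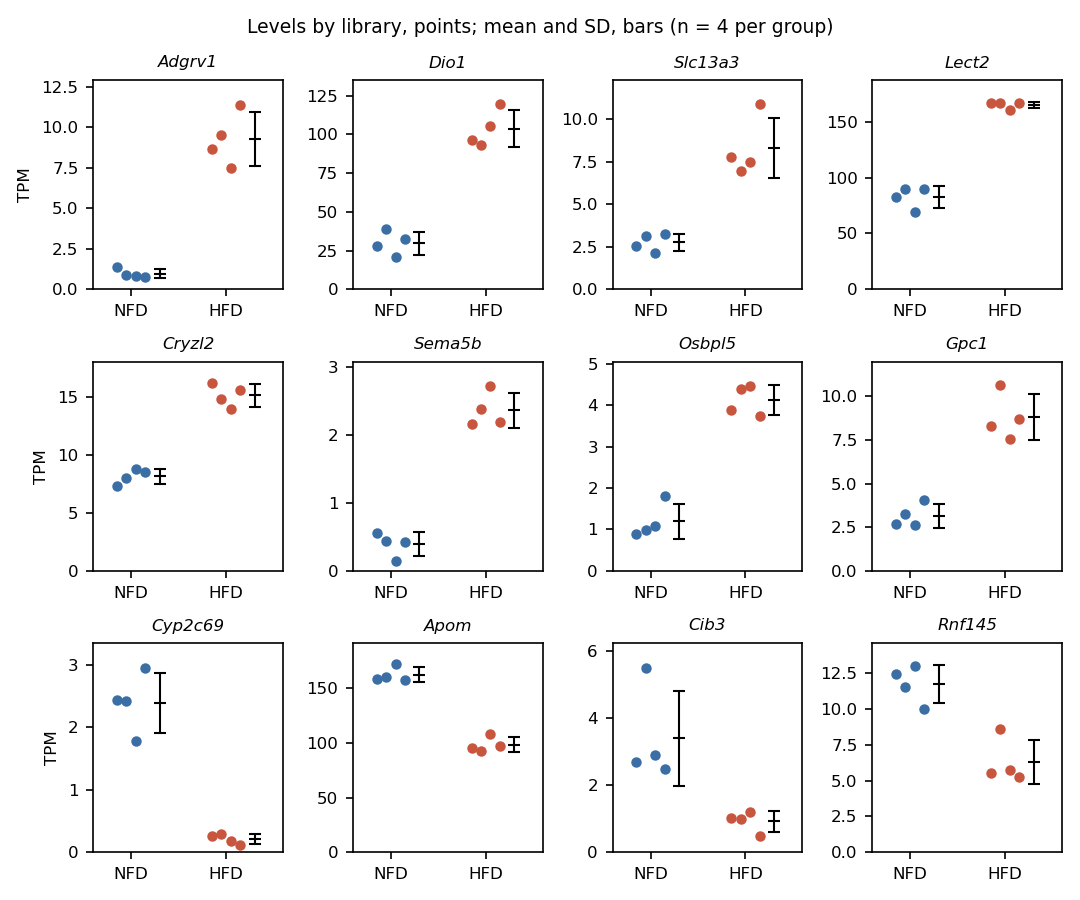
Level in TPM (vertical axes, from 0) of the 8 genes of smallest p among those higher and the 4 among those lower in HFD; points are libraries, horizontal bars the mean and vertical bars the SD (n = 4 per group). In all 12 genes the HFD and NFD points do not overlap, which for Cyp2c69 followed from the filter.

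Genes of hormone action and signalling passed in both directions. Of 13 tested genes of thyroid hormone handling 2 rose, among them Dio1. Adra1b, the alpha-1B adrenergic receptor of hepatocytes, ranged over 10.99 to 19.2 TPM in NFD and 20.6 to 29.9 TPM in HFD and rose (adjusted p = 0.0185). Adgrf1, an adhesion receptor as Adgrv1 is, fell from 2.22, 2.49, 1.96 and 1.52 TPM to 0.35, 0.13, 0.62 and 0.2 TPM (log2 change -1.21 ± 0.20 SE, adjusted p = 0.00958). No HFD library of it reached the NFD range. Il6ra, the interleukin-6 receptor, ranged over 19.1 to 26.2 TPM in NFD and 27.4 to 38.5 TPM in HFD (adjusted p = 0.0299) and Stat5a, a transcription factor of growth hormone and cytokine signalling, over 1.56 to 2.52 TPM in NFD and 2.53 to 5.2 TPM in HFD (adjusted p = 0.0401). Both rose. Fgf1, a growth factor known for its effects on blood glucose, rose as well (62.96 to 82.98 TPM in NFD and 88.8 to 107 TPM in HFD, adjusted p = 0.0331). Foxo1, which carries the insulin signal to gluconeogenic genes, was at 5.32 to 8.05 TPM in NFD and 9.38 to 11.6 TPM in HFD and rose (adjusted p = 0.0235). Foxa3, a pioneer factor of hepatocyte genes, fell from 86.8, 65.3, 56.3 and 71.4 TPM to 40.2, 41.9, 46.1 and 34.8 TPM (adjusted p = 0.0248) as the 1 of 42 tested hepatocyte transcription factors to pass. Tbl1xr1, a subunit of nuclear receptor corepressor complexes, rose (14.2 to 17.8 TPM in NFD and 24.5 to 38.95 TPM in HFD, adjusted p = 0.00958), and Pprc1, a coactivator of the PGC-1 family, fell (7.39 to 11.5 TPM in NFD and 3.89 to 6.8 TPM in HFD, adjusted p = 0.04995). Over the 8 leave-outs the calls of Dio1, Adgrf1 and Tbl1xr1 were always kept. The others were kept for Adra1b in 5 (up to 0.0705 without HFD replicate 1), Il6ra in 2 (up to 0.105 without HFD replicate 4), Stat5a in 2 (up to 0.135 without HFD replicate 1) and Fgf1 in 1 (up to 0.115 without HFD replicate 1). The same held for Foxo1 in 3 (up to 0.0786 without HFD replicate 4), Foxa3 in 3 (up to 0.0897 without HFD replicate 4) and Pprc1 in 2 (up to 0.152 without HFD replicate 1), where the bracket gives the highest adjusted p and the library whose absence gave it.

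Among proteins that take up, bind and activate fatty acids the calls were all upward. In the list of uptake, binding and activation 5 of 23 tested members rose and 0 fell (median log2 fold change 0.18, against 0.01 for all genes). They were the transporter Cd36, the acyl-CoA synthetases Acsm1, Acsm3 and Acss3, and the fatty acid binding protein Fabp2. Cd36 was at 15.9, 16.1, 11.1 and 20.99 TPM in NFD and 77.8, 69.4, 40.1 and 65.9 TPM in HFD (adjusted p = 0.0161), the lowest HFD value being that of replicate 3. Acss3, which activates short-chain acids such as propionate in mitochondria, was at 6.21, 6.34, 5.87 and 8.32 TPM in NFD and 18.3, 20.2, 13.5 and 17.1 TPM in HFD (log2 change 1.25 ± 0.25 SE, adjusted p = 0.0244). Its groups did not overlap. The medium-chain enzyme Acsm3 ranged over 39.6 to 50.3 TPM in NFD and 63.5 to 81.3 TPM in HFD (adjusted p = 0.0171) and its neighbour Acsm1 over 123 to 151 TPM in NFD and 175 to 188 TPM in HFD (adjusted p = 0.0252). Fabp2 was at 44.3, 46.6, 82.1 and 48.1 TPM in NFD and 91.6, 113, 80.8 and 88.7 TPM in HFD (adjusted p = 0.0296), and NFD replicate 3 overlapped the HFD range. The number of members called was 2, 3, 3 and 4 without NFD replicates 1, 2, 3 and 4 in turn, and 0, 1, 4 and 1 without the corresponding HFD replicates. In fatty acid synthesis 0 of 18 tested genes passed either way (median -0.09). In triglyceride synthesis 2 of 21 rose, Mogat1 and Gpat3, an acyltransferase of the first step of glycerolipid synthesis (1.38 to 2.79 TPM in NFD and 2.87 to 6.51 TPM in HFD, adjusted p = 0.0286, kept in 2 of 8 leave-outs). Mogat1 reached 1 TPM in HFD libraries only, so it met the floor through them alone and the separation of its groups followed from the filter.

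Fatty acid oxidation comes in 2 overlapping lists, to be read against the 2.19% of all genes called higher. In the mitochondrial list 2 of 26 tested members rose and 12 of 26 were higher at an unadjusted p under 0.05, where 11.8% of all tested genes were higher and 7.3% lower (median 0.21). Hadh, the third enzyme of the beta-oxidation spiral, was at 143, 126, 112 and 118 TPM in NFD and 236, 214, 187 and 209 TPM in HFD (log2 change 0.76 ± 0.13 SE, adjusted p = 0.00895). Acat1, which splits and forms acetoacetyl-CoA, ranged over 77.6 to 89.3 TPM in NFD and 108 to 128 TPM in HFD (adjusted p = 0.0189). In both genes every HFD library exceeded every NFD library. Cpt1a, the gatekeeper of mitochondrial entry, ranged over 157 to 214 TPM in NFD and 200.2 to 219 TPM in HFD and did not pass (adjusted p = 0.331). Of 29 tested PPARalpha targets 4 rose (median 0.37), namely Vnn1, Pdk4, Aldh3a2 and Pex11a. Aldh3a2, the dehydrogenase of fatty aldehydes, was at 164, 130.0, 162 and 174 TPM in NFD and 293, 258, 261 and 259 TPM in HFD (log2 change 0.77 ± 0.15 SE, adjusted p = 0.0181). Pex11a, a factor of peroxisome division, ranged over 23.98 to 59.2 TPM in NFD and 68.6 to 82.05 TPM in HFD (adjusted p = 0.0417) and its relative Pex11g over 9.5 to 10.6 TPM in NFD and 12.1 to 16.7 TPM in HFD (adjusted p = 0.0181). The receptor Ppara itself ranged over 51.9 to 89.3 TPM in NFD and 98.4 to 114 TPM in HFD and did not pass (adjusted p = 0.0675). Acot11, a thioesterase that releases fatty acids from long-chain acyl-CoA, rose from 0.85, 1.06, 0.9 and 1.17 TPM to 3.21, 3.81, 2.69 and 5.44 TPM (log2 change 1.23 ± 0.19 SE, adjusted p = 0.00512). Tmlhe, the first enzyme of carnitine synthesis, chosen after its values were seen, rose (3.5 to 4.17 TPM in NFD and 5.43 to 6.49 TPM in HFD, adjusted p = 0.02). The calls of Hadh and Acot11 were kept in each of the 8 leave-outs, those of Acat1 in 6 (up to 0.0763 without HFD replicate 1), Aldh3a2 in 6 (up to 0.0705 without HFD replicate 1), Pex11a in 2 (up to 0.123 without HFD replicate 1), Pex11g in 5 (up to 0.0722 without HFD replicate 1) and Tmlhe in 5 (up to 0.0677 without HFD replicate 1). The count of PPARalpha targets called higher was 1, 5, 2 and 3 without NFD replicates 1, 2, 3 and 4 in turn, and 0, 1, 2 and 0 without the corresponding HFD replicates.

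Other lists of lipid and redox metabolism follow. Of 11 tested genes known from PPARgamma-driven steatosis 3 rose (median 0.51), Cd36, Mogat1 and Fitm1, the fat storage-inducing membrane protein, at 15.03, 12.8, 6.59 and 15.7 TPM in NFD and 35.1, 25.8, 34.7 and 35.7 TPM in HFD (adjusted p = 0.0119). Sterol efflux and LXR targets had 2 of 20 higher (median 0.27), the oxysterol-binding protein Osbpl3, at 0.43, 0.53, 0.79 and 0.74 TPM in NFD and 3.25, 1.85, 1.47 and 1.87 TPM in HFD (log2 change 0.91 ± 0.17 SE, adjusted p = 0.0131), and Abcg8, which pumps sterols into bile (18.3 to 22.8 TPM in NFD and 32.1 to 35.5 TPM in HFD, adjusted p = 0.045). Of 29 tested genes of sphingolipid metabolism 2 rose, the ceramidase Asah2 (5.39 to 6.78 TPM in NFD and 7.97 to 9.44 TPM in HFD, adjusted p = 0.0338) and Ormdl3, which restrains the first step of ceramide synthesis (20.6 to 28.8 TPM in NFD and 30.6 to 36.6 TPM in HFD, adjusted p = 0.0433). Gpx1, the main cytosolic glutathione peroxidase and a selenoprotein, was at 1155, 981, 831 and 955 TPM in NFD and 1516, 1422, 1413 and 1508 TPM in HFD (adjusted p = 0.0185), with 1 of 7 tested antioxidant enzymes of its list past the threshold. NRF2 and its targets gave 0 calls of 25, and glutathione synthesis and turnover 0 of 21. Gamt, which makes creatine (41.4 to 71.1 TPM in NFD and 91.4 to 107 TPM in HFD, adjusted p = 0.0337), and Fpgs, which traps folates in cells (48.9 to 67.2 TPM in NFD and 78.3 to 102 TPM in HFD, adjusted p = 0.0379), were the 2 of 32 in the methionine and folate list. The calls of Mogat1, Fitm1 and Osbpl3 were kept in each of the 8 leave-outs, and those of Cd36 in 6 (up to 0.0631 without HFD replicate 1), Abcg8 in 0 (up to 0.123 without HFD replicate 1), Asah2 in 2 (up to 0.112 without HFD replicate 4), Ormdl3 in 2 (up to 0.123 without HFD replicate 4), Gpx1 in 6 (up to 0.0705 without HFD replicate 1), Gamt in 2 (up to 0.108 without HFD replicate 1) and Fpgs in 1 (up to 0.124 without HFD replicate 1). The leave-outs used the same filter, which Mogat1 met through HFD alone, so its kept call adds no separate support.

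In the list of glycolysis and pyruvate entry into mitochondria 4 of 37 tested genes rose and 1 fell. Pdp2, the phosphatase that switches pyruvate dehydrogenase on, was at 10.2, 14.5, 9.63 and 11.7 TPM in NFD and 20.3, 18.6, 17.4 and 22.4 TPM in HFD (log2 change 0.74 ± 0.13 SE, adjusted p = 0.00958). Pdk4, the kinase that switches it off, was low and ranged over 0.93 to 1.57 TPM in NFD and 1.61 to 2.89 TPM in HFD (adjusted p = 0.0465). The 2 opposing regulators thus both rose. Mpc1, a subunit of the mitochondrial pyruvate carrier, ranged over 124 to 145 TPM in NFD and 171 to 241 TPM in HFD (adjusted p = 0.0185) and Ldhd, which oxidizes D-lactate, over 39.6 to 48.6 TPM in NFD and 55.9 to 81.97 TPM in HFD (adjusted p = 0.0379). Aldoa, an aldolase of glycolysis, fell from 93.7, 78.6, 139 and 88.5 TPM to 64.5, 65.6, 59.3 and 56.4 TPM (adjusted p = 0.0279), with NFD replicate 3 the highest. In the pentose phosphate pathway Taldo1, transaldolase, rose (36.1 to 43.4 TPM in NFD and 52.1 to 60.8 TPM in HFD, adjusted p = 0.0296). Pdp2 kept its call in all 8 leave-outs, and Pdk4 in 1 (up to 0.15 without HFD replicate 1), Mpc1 in 6 (up to 0.0722 without HFD replicate 1), Ldhd in 2 (up to 0.113 without HFD replicate 4), Aldoa in 3 (up to 0.0942 without HFD replicate 4) and Taldo1 in 2 (up to 0.0886 without HFD replicate 2).

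Calls among enzymes of amino acid breakdown came from several branches. Prodh and Aldh4a1, the consecutive enzymes from proline to glutamate, both rose. Prodh was at 54.9, 49.4, 53.6 and 53.3 TPM in NFD and 85.1, 74.8, 80.4 and 96.7 TPM in HFD (log2 change 0.66 ± 0.11 SE, adjusted p = 0.00958), and Aldh4a1 at 94.98, 97.8, 94.3 and 91.6 and 135, 118, 118 and 125 TPM (log2 change 0.39 ± 0.09 SE, adjusted p = 0.0343). In neither gene did the groups overlap. Agxt2, an aminotransferase that clears dimethylarginines, was at 46.4, 48.7, 44.1 and 44.4 TPM and 77.7, 75.3, 74 and 67.3 TPM (log2 change 0.67 ± 0.10 SE, adjusted p = 0.00554), again without overlap. In the breakdown of branched-chain amino acids 2 of 25 rose and 12 of 25 were higher at an unadjusted p under 0.05, against 11.8% of all genes. The 2 were Ppm1k, the phosphatase that activates the branched-chain ketoacid dehydrogenase (19.5 to 29.3 TPM in NFD and 39.4 to 44.7 TPM in HFD, adjusted p = 0.033), and Hibadh of the valine branch (92.2 to 111 TPM in NFD and 126 to 141 TPM in HFD, adjusted p = 0.0315). The tryptophan and NAD list had 3 of 32 higher. Ido2, which opens the tryptophan ring, was at 14.9, 21.99, 18.6 and 18.04 TPM in NFD and 34.2, 36.3, 29.5 and 37.7 TPM in HFD (log2 change 0.88 ± 0.12 SE, adjusted p = 0.0028). Kmo, the next hydroxylase of the kynurenine path, ranged over 80.2 to 104 TPM in NFD and 121 to 146 TPM in HFD (adjusted p = 0.0189). Nudt12, a hydrolase of NADH, ranged over 29.3 to 32.8 TPM in NFD and 39.9 to 42.6 TPM in HFD (adjusted p = 0.0197). Tdo2, the main tryptophan dioxygenase of hepatocytes, did not pass (320.2 to 473 TPM in NFD and 369.7 to 442 TPM in HFD, adjusted p = 0.754).

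In the list of the urea cycle and proline breakdown 2 of 28 rose, Prodh and Aldh4a1, and 1 fell, and in that of tyrosine, histidine, glycine and serine 1 of 30 rose and 1 fell. Asl, which splits argininosuccinate in the urea cycle, was at 319.9, 373, 745 and 340.4 TPM in NFD and 215, 246, 221 and 226 TPM in HFD and fell (log2 change -0.88 ± 0.21 SE, adjusted p = 0.0462). Sdsl, a serine dehydratase-like enzyme, was at 6.17, 4.97, 14.2 and 5.64 and 3.3, 2.99, 2.71 and 3.08 TPM and fell (log2 change -1.01 ± 0.22 SE, adjusted p = 0.0291). The groups of both genes did not overlap, and NFD replicate 3 was far above the other NFD libraries in both. Cps1, the first enzyme of the cycle, had the same high library, with 1420.0, 1687, 3156 and 1116 TPM in NFD and 1066, 1051, 1157 and 1184 TPM in HFD, and did not pass (adjusted p = 0.183). The calls of Prodh, Agxt2 and Ido2 were kept in each of the 8 leave-outs. Of the 8, the call was kept for Aldh4a1 in 0 (up to 0.128 without HFD replicate 1), Ppm1k in 2 (up to 0.0952 without HFD replicate 1), Hibadh in 1 (up to 0.114 without HFD replicate 1), Kmo in 5 (up to 0.0764 without HFD replicate 1) and Nudt12 in 4 (up to 0.0705 without HFD replicate 1), and for Asl in 2 (up to 0.129 without HFD replicate 1) and Sdsl in 3 (up to 0.083 without HFD replicate 4).

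Nucleotide metabolism had calls in both directions. Of 39 tested genes 4 rose and 2 fell (median -0.03). Those that rose break down or salvage pyrimidines and guanine. Gda, guanine deaminase, was at 9.95, 9.42, 7.36 and 8.3 TPM in NFD and 16.9, 16.2, 12.99 and 14.3 TPM in HFD (log2 change 0.72 ± 0.11 SE, adjusted p = 0.00472). Upp2, the uridine phosphorylase of liver, was at 125, 98.2, 56.1 and 104 and 170.3, 184, 219 and 228 TPM (log2 change 1.10 ± 0.21 SE, adjusted p = 0.0181). Dpys, which opens the pyrimidine ring, ranged over 101 to 120.3 TPM in NFD and 156 to 178 TPM in HFD (adjusted p = 0.017) and the uridine kinase Uck1 over 14.96 to 20.4 TPM in NFD and 22.9 to 33.8 TPM in HFD (adjusted p = 0.024). The 2 that fell act on adenine nucleotides. Aprt, which salvages adenine, was at 25.03, 26.8, 41.9 and 28.3 TPM in NFD and 13.8, 14.5, 16.2 and 20.4 TPM in HFD (log2 change -0.86 ± 0.15 SE, adjusted p = 0.0114). Ampd2, the deaminase of AMP, ranged over 14.1 to 17.8 TPM in NFD and 9.87 to 12.6 TPM in HFD (adjusted p = 0.0464). Without overlap in any of the 6, the calls of Gda and Aprt were kept in all 8 leave-outs, and those of Upp2 in 7 (up to 0.0599 without HFD replicate 4), Dpys in 6 (up to 0.0696 without HFD replicate 1), Uck1 in 2 (up to 0.0726 without HFD replicate 4) and Ampd2 in 0 (up to 0.149 without HFD replicate 1).

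Drug-metabolizing enzymes also had calls in both directions. Of 59 tested cytochromes P450, 3 rose and 2 fell. Nr1i2, the receptor PXR, was at 19.6, 28.02, 18.9 and 21.1 TPM in NFD and 33.8, 34.7, 36.7 and 34.6 TPM in HFD (log2 change 0.67 ± 0.11 SE, adjusted p = 0.00855). Its partner Nr1i3, the receptor CAR, ranged over 131 to 170.0 TPM in NFD and 178 to 234 TPM in HFD and did not pass (adjusted p = 0.107). Cyp2b9 was at 0.23, 0.39, 0.19 and 1.22 TPM in NFD and 99.3, 82.02, 20.5 and 49.9 TPM in HFD (adjusted p = 0.0102), a rise in all 4 libraries whose size differed strongly among them. Cyp2j5, an abundant epoxygenase of arachidonic acid, ranged over 249.7 to 287 TPM in NFD and 352 to 409 TPM in HFD (adjusted p = 0.0252), and Cyb5a, the electron donor cytochrome b5, over 802 to 993 TPM in NFD and 1180.0 to 1294 TPM in HFD (adjusted p = 0.0283). Both rose. Among the 12 tested Cyp2c genes 2 fell and 0 rose (median -0.36). Cyp2c40 lies next to Cyp2c69 and was at 19.2, 10.8, 13.6 and 20.3 TPM in NFD and 7.51, 7.12, 5.53 and 5.67 TPM in HFD (adjusted p = 0.0131). The Cyp2 genes have close paralogs, and the handling of reads shared by paralogs was not stated in any label or header. The count of Cyp2c genes called lower was 2, 2, 4 and 2 without NFD replicates 1, 2, 3 and 4 in turn, and 2, 2, 2 and 1 without the corresponding HFD replicates.

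Genes known to differ between the sexes of mouse liver overlap with these families. Of 29 tested male-biased genes 0 passed (median -0.41), and of 17 tested female-biased genes 3 rose and 2 fell (median 0.38). The mean log2(TPM + 1) of the male-biased genes was 7.80 to 7.99 in NFD, and 7.05, 7.23, 8.10 and 8.01 in HFD replicates 1 to 4. Replicates 1 and 2 thus lay under every NFD library and replicates 3 and 4 above every one. That of the female-biased genes was 2.12 to 2.54 in NFD and 3.39, 3.43, 2.62 and 2.63 in HFD. Without HFD replicate 1 the medians were -0.14 and 0.20, and without HFD replicate 3 they were -0.49 and 0.58. The 3 were Cyp2b9, Cyp2a22 (0.56 to 2.77 TPM in NFD and 7.71 to 18.1 TPM in HFD, adjusted p = 0.0417) and Slc22a27, an organic anion transporter (0.07 to 0.34 TPM in NFD and 0.95 to 4.14 TPM in HFD, adjusted p = 0.0397), and the 2 that fell were Cyp2c69 and Cyp2c40. The calls of Cyp2a22 and Slc22a27 were kept in 1 of the 8 leave-outs each. Mup1, an abundant male-biased secreted protein, was at 1597, 1348, 2572 and 1881 TPM in NFD and 411, 462, 1733 and 1658 TPM in HFD, with HFD replicates 1 and 2 under the NFD range and replicates 3 and 4 within it (adjusted p = 0.416).

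Conjugating and carbonyl enzymes are read against the same 2.19% higher and 0.589% lower of all genes. Of 10 tested sulfotransferases 2 rose and 0 fell (median 0.36). Sult1b1, which sulfates thyroid hormones and phenols, was at 9.0, 10.2, 8.16 and 8.59 TPM in NFD and 19.97, 16.7, 18.9 and 18.6 TPM in HFD (log2 change 0.97 ± 0.14 SE, adjusted p = 0.00323). Sult5a1 ranged over 6.04 to 9.43 TPM in NFD and 10.4 to 14.03 TPM in HFD (adjusted p = 0.04995). In the list of flavin monooxygenases and aldehyde and alcohol dehydrogenases 4 of 26 rose (median 0.26). They were Aldh3a2, Aldh1a1, which oxidizes retinaldehyde (440.1 to 885 TPM in NFD and 1050.0 to 1287 TPM in HFD, adjusted p = 0.0239), Dhrs7 (10.97 to 14.4 TPM in NFD and 18.02 to 26.7 TPM in HFD, adjusted p = 0.0244) and Dhrs3, which reduces retinaldehyde (62.8 to 81.4 TPM in NFD and 91.5 to 102 TPM in HFD, adjusted p = 0.045). The steroid reductases Akr1c20 (51.9 to 66.8 TPM in NFD and 82.9 to 104 TPM in HFD, adjusted p = 0.0103) and Akr1c6 (265 to 493 TPM in NFD and 568 to 668 TPM in HFD, adjusted p = 0.0464) are neighbours on chromosome 13 and both rose. The carboxylesterases had 1 call each way, Ces2e rising from 73.7, 81.95, 41.3 and 61.2 to 116, 126, 120.5 and 136 TPM (log2 change 0.98 ± 0.20 SE, adjusted p = 0.0236) and Ces2a falling from 109, 116, 90.8 and 85.5 to 64.5, 56.4, 66.9 and 53.2 TPM (log2 change -0.72 ± 0.12 SE, adjusted p = 0.00958). Ugt1a8, a glucuronosyltransferase, fell as the 1 of 22 tested UGT genes past the threshold (2.17 to 3.9 TPM in NFD and 0.53 to 1.83 TPM in HFD, adjusted p = 0.0474). Glutathione S-transferases had 2 of 22 higher, the mitochondrial and peroxisomal Gstk1 (61.4 to 74.6 TPM in NFD and 96.3 to 114 TPM in HFD, adjusted p = 0.0235) and Gstt1 (76.1 to 133 TPM in NFD and 154 to 221 TPM in HFD, adjusted p = 0.0291). Msra, which repairs oxidized methionine, rose too (78.3 to 87.5 TPM in NFD and 108 to 120.4 TPM in HFD, adjusted p = 0.0121). In the 8 leave-outs Nr1i2, Cyp2b9, Sult1b1, Akr1c20, Ces2a and Msra kept their calls throughout. Others kept them in part: Cyp2j5 in 2 (up to 0.093 without HFD replicate 1), Cyb5a in 2 (up to 0.104 without HFD replicate 1), Cyp2c40 in 7 (up to 0.0508 without HFD replicate 4), Sult5a1 in 1 (up to 0.126 without NFD replicate 1), Aldh1a1 in 5 (up to 0.0844 without HFD replicate 1) and Dhrs7 in 2 (up to 0.0886 without HFD replicate 1). The remaining ones were Dhrs3 in 1 (up to 0.141 without HFD replicate 1), Akr1c6 in 2 (up to 0.124 without HFD replicate 2), Ces2e in 4 (up to 0.0792 without HFD replicate 4), Ugt1a8 in 0 (up to 0.135 without HFD replicate 4), Gstk1 in 4 (up to 0.0881 without HFD replicate 1) and Gstt1 in 2 (up to 0.105 without HFD replicate 1).

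Of 209 tested solute carriers, the membrane transporters of small molecules, 14 rose and 4 fell (median 0.07), against 2.19% and 0.589% of all genes. This was the largest number of calls of any gene family examined, and such a number depends on the size of the family. Beside Slc13a3 the carriers called included Slc16a11, a monocarboxylate carrier tied to lipid metabolism in human genetics, at 1.35, 2.43, 2.71 and 3.14 TPM in NFD and 5.5, 7.53, 4.9 and 5.7 TPM in HFD (log2 change 1.04 ± 0.19 SE, adjusted p = 0.0116). Its neighbour Slc16a13, which lies 375 bases from it on chromosome 11 and was chosen after its values were seen, was at 0.69, 0.53, 1.03 and 0.74 and 1.78, 1.93, 1.27 and 1.71 TPM (adjusted p = 0.0189). In neither carrier did the groups overlap. Among those that fell, Slco2a1, the prostaglandin transporter, was at 13.9, 11.5, 18.4 and 11.8 TPM in NFD and 5.88, 8.33, 8.27 and 6.54 TPM in HFD (log2 change -0.84 ± 0.14 SE, adjusted p = 0.00895). Slc22a30, an organic anion transporter, was at 132, 133, 225 and 139.7 and 85.4, 105, 95.8 and 70.6 TPM (adjusted p = 0.0379), with NFD replicate 3 the highest. The count of carriers called higher was 6, 11, 6 and 6 without NFD replicates 1, 2, 3 and 4 in turn, and 4, 4, 11 and 2 without the corresponding HFD replicates. Calls were kept for Slc16a11 and Slco2a1 in each of 8, for Slc16a13 in 4 (up to 0.0705 without HFD replicate 1) and Slc22a30 in 1 (up to 0.118 without HFD replicate 4).

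By zone of the liver lobule, 5 of 33 tested pericentral genes rose and 0 fell, and of 33 periportal genes 0 rose and 1 fell. The pericentral 5 included Slc13a3, Lect2, Aldh1a1 and Sult5a1, and the periportal 1 was Sdsl. The medians were 0.05 and -0.03, both close to that of all genes, and the difference between the zones was not tested. Glul, the classical marker of cells around the central vein, ranged over 429 to 593 TPM in NFD and 537 to 619 TPM in HFD (adjusted p = 0.427), and Cyp2f2, a periportal P450, over 381 to 517 TPM in NFD and 415 to 487 TPM in HFD (adjusted p = 0.885). The pericentral count was 5, 4, 4 and 5 without NFD replicates 1, 2, 3 and 4 in turn, and 3, 3, 4 and 2 without the corresponding HFD replicates.

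Genes known as interferon-inducible rose in small numbers from several families. Interferons act through the transcription factor complex ISGF3 and the IRF factors, which bind a DNA element made of repeated GAAA. Of 17 tested interferon-inducible GTPases, proteins that attack vacuoles of microbes, 5 rose and 0 fell (median 0.46). Of 25 tested nucleic acid sensors and Ifi200 proteins 5 rose (median 0.37). Of 60 tested genes of type I interferon signalling and its effectors 3 rose, and 29 were higher at an unadjusted p under 0.05, against 11.8% of all genes (median 0.38). In 5 of the 60 every HFD library exceeded every NFD library, a share close to the 7.78% of all genes. In the MHC class I and immunoproteasome list 2 of 31 rose and 1 fell. The 15 genes that rose in these 4 lists lay in part side by side on chromosomes 1, 3 and 5.

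RefSeq promoter windows of build GRCm38.p6, from 250 bases before to 50 bases after the gene start, were found for 8 of these 15 genes. The element searched, GAAA, any 2 bases, then GAAA, on either strand, was present in 5 of the 8, in Gbp2, Gbp7, Ifi207, Ifi213 and Mndal, and absent from the windows of Herc6, Psmb8 and Samd9l. Among the 116 tested genes of the same lists that did not pass, 92 had a window and 36 of those held it. Over all tested genes with a window it stood in 346 of 8915, or 3.88%. A match describes letters and not a bound site. The windows of 4 of the 5 follow, each 5′ to 3′ on the strand of its gene, with the bases of the element in capitals, because these genes belong to the interferon result described next. They come from chr3:142620413-142620712 and chr3:142530086-142530385 on the plus strand and from chr1:173741760-173742059 and chr1:173879909-173880208 on the minus strand. That of Mndal is 1 of 2 windows of its gene and lies within the listed span of the gene, 173857215 to 173880382.
Gbp2: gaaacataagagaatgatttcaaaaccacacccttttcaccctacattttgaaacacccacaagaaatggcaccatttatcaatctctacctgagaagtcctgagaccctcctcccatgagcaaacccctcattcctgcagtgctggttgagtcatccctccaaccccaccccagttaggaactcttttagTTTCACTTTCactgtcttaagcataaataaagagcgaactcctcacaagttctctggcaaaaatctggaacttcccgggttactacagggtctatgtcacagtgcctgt
Gbp7: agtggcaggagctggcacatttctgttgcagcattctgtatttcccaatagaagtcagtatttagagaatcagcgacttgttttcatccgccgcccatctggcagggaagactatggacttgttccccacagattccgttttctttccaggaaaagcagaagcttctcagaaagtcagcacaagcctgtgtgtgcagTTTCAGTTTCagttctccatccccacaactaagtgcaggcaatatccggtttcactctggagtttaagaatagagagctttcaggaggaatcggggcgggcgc
Ifi207: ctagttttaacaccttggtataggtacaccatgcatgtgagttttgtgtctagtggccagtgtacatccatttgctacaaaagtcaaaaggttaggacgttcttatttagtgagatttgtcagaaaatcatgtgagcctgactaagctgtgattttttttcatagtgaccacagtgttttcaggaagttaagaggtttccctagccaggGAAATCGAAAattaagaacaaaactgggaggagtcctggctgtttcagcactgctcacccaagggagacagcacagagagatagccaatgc
Mndal: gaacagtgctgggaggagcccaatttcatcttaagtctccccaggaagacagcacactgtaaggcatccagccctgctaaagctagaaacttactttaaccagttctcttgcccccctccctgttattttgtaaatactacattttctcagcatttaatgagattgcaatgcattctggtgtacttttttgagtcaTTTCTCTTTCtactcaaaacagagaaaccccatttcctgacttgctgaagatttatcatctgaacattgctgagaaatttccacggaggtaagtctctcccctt

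Gbp7, a guanylate-binding protein, was at 4.72, 5.08, 6.22 and 5.79 TPM in NFD and 13.3, 10.2, 8.13 and 8.8 TPM in HFD (log2 change 0.77 ± 0.13 SE, adjusted p = 0.00895). Its neighbour Gbp2 was at 1.28, 1.48, 1.94 and 1.63 TPM and 6.22, 4.22, 2.16 and 4.27 TPM (log2 change 0.96 ± 0.22 SE, adjusted p = 0.0321). Both were highest in HFD replicate 1, and HFD replicate 3 lay nearest to NFD. The neighbours Gbp10 and Gbp6 on chromosome 5 were also highest in HFD replicate 1 and lowest in HFD replicate 3. Gbp10 was at 3.12, 2.22, 2.13 and 6.73 TPM in NFD and 24.5, 11.2, 9.1 and 13.3 TPM in HFD (adjusted p = 0.0263), and Gbp6 at 2.44, 1.89, 4.3 and 5.28 and 15.2, 9.56, 5.94 and 8.48 TPM (adjusted p = 0.0337). Iigp1, an abundant member of another GTPase family, ranged over 104 to 128 TPM in NFD and 143 to 203 TPM in HFD (adjusted p = 0.0197). Zbp1, a sensor of Z-form nucleic acid that can trigger cell death, was at 3.49, 3.24, 5.2 and 4.27 TPM in NFD and 19.4, 9.7, 8.19 and 9.24 TPM in HFD (log2 change 1.26 ± 0.23 SE, adjusted p = 0.0141). HFD replicate 1 stood well above the other HFD libraries. In the Ifi200 cluster of DNA sensors on chromosome 1, Ifi204 ranged over 2.5 to 3.95 TPM in NFD and 4.83 to 7.37 TPM in HFD (adjusted p = 0.0123) and Ifi207 over 1.66 to 2.58 TPM in NFD and 3.69 to 4.47 TPM in HFD (adjusted p = 0.0158). Ifi213 (0.9 to 1.91 TPM in NFD and 2.61 to 3.68 TPM in HFD, adjusted p = 0.02) and Mndal (log2 change 0.51 ± 0.12 SE, adjusted p = 0.041) rose with them. These families hold near-identical copies, so the division of reads within them is uncertain.

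The third list gave Samd9l, an antiviral factor (3.39 to 6.24 TPM in NFD and 7.33 to 10.9 TPM in HFD, adjusted p = 0.0234), the ligase Herc6 (4.9 to 8.15 TPM in NFD and 8.32 to 14.1 TPM in HFD, adjusted p = 0.0307) and Ifi27l2b (0.73 to 3.2 TPM in NFD and 3.2 to 7.66 TPM in HFD, adjusted p = 0.0481), whose groups touched at 1 library each. The receptor subunit Ifnar1 did not pass (16.5 to 21.6 TPM in NFD and 18.4 to 20.9 TPM in HFD, adjusted p = 0.846). Of the MHC class I list Psmb8, the inducible proteasome subunit, ranged over 10.6 to 17.1 TPM in NFD and 17.3 to 25.7 TPM in HFD (adjusted p = 0.0235). H2-Q1, a non-classical class I gene, was at 0.66, 0.7, 0.17 and 0.77 TPM in NFD and 4.03, 3.56, 1.55 and 2.4 TPM in HFD (log2 change 1.27 ± 0.25 SE, adjusted p = 0.0186). The classical gene H2-K1 did not pass (709 to 882 TPM in NFD and 846 to 1100.0 TPM in HFD, adjusted p = 0.175). These counts differed with the library left out. The GTPases called were 1, 2, 5 and 4 without NFD replicates 1, 2, 3 and 4 in turn, and 1, 1, 6 and 2 without the corresponding HFD replicates. The sensors called were 3, 4, 8 and 5 without NFD replicates 1, 2, 3 and 4 in turn, and 2, 3, 5 and 4 without the corresponding HFD replicates. For type I signalling the count was 0, 0, 13 and 1 without NFD replicates 1, 2, 3 and 4 in turn, and 0, 0, 7 and 1 without the corresponding HFD replicates. Only the calls of Gbp7, Ifi204 and Zbp1 among the 15 were kept in all 8 leave-outs.

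Markers of macrophages stood beside these genes. Of 17 tested Kupffer cell markers 0 passed (median 0.48). At an unadjusted p under 0.05, 5 were higher and 1 lower, against 11.8% and 7.3% of all genes. In 1 of the 17 every HFD library exceeded every NFD library, against 7.78% of all genes. In 1, the complement gene C6, every HFD library lay under every NFD library, against 4.57%. The tested members summed to 323.2 to 431 TPM in NFD and 309.8 to 473.8 TPM in HFD. These sums include C6, an abundant member that was lower in HFD, so they do not follow the other markers alone. Clec4f, a defining marker, was at 18.4, 13.2, 23.7 and 18.6 TPM in NFD and 27.3, 30.4, 17.2 and 36.5 TPM in HFD (adjusted p = 0.236), lowest in HFD replicate 3 and highest in replicate 4. Of 8 markers of macrophages derived from monocytes 1 rose, Plac8 (1.69 to 3.52 TPM in NFD and 4.21 to 6.78 TPM in HFD, adjusted p = 0.0185), and the tested members summed to 56.6 to 68.3 TPM in NFD and 58.5 to 84.7 TPM in HFD. T and NK cell markers reached the floor in 4 of 21 and summed to 2.7 to 4.8 TPM in NFD and 3.9 to 6.5 TPM in HFD, and Cd3e, a T cell marker under the floor, was at 0.27 to 0.79 TPM in NFD and 0.62 to 0.91 TPM in HFD. Markers of sinusoidal endothelium (17 tested, median 0.03) and of stellate cells (15 tested, median 0.19) gave 0 calls. The part of these cells in the interferon result was not tested.

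The acute phase list had 4 of 40 tested members higher and 0 lower (median 0.27). Saa4, the constitutive serum amyloid, was at 72.7, 83.4, 64.4 and 86.9 TPM in NFD and 252, 177, 218 and 316 TPM in HFD (log2 change 1.61 ± 0.25 SE, adjusted p = 0.00845). Its neighbour Saa3, the form made outside hepatocytes as well, was at 6.14, 6.77, 9.64 and 4.71 and 25.4, 17.9, 10.7 and 17.7 TPM (adjusted p = 0.0158). The groups of both genes were separate. Serpina3g, a protease inhibitor, rose (2.38 to 3.79 TPM in NFD and 5.35 to 7.67 TPM in HFD, adjusted p = 0.0152) and Il6ra was the fourth. In the complement list 2 of 36 rose, Cfd and C4b (342 to 425 TPM in NFD and 467 to 709 TPM in HFD, adjusted p = 0.0295). Cfd, which adipocytes secrete, was at 0.58, 0.05, 0.05 and 0.12 TPM in NFD and 4.87, 4.74, 6.63 and 32.7 TPM in HFD (adjusted p = 0.02), and HFD replicate 4 was far above the other HFD libraries. Without HFD replicate 4, Cfd still passed. Car3, carbonic anhydrase III of adipocytes, muscle and liver, was at 855, 808, 391 and 727 TPM in NFD and 1879, 2061, 2053 and 1854 TPM in HFD (log2 change 1.55 ± 0.21 SE, adjusted p = 0.00316). Cfd and Car3 were the 2 of 5 tested adipocyte markers that rose. Adipoq, a defining adipocyte marker under the floor, was at 0 to 0.04 TPM in NFD and 0 to 0.15 TPM in HFD, and Plin1, another, at 0 to 0.07 and 0 to 0.27 TPM. Calls were kept in all 8 leave-outs for Saa4, Cfd and Car3, for Saa3 in 7 (up to 0.0515 without HFD replicate 4), Serpina3g in 6 (up to 0.0632 without HFD replicate 1) and C4b in 2 (up to 0.109 without HFD replicate 1).

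Galectins, S100 proteins and annexins, which bind sugars, calcium and membranes, had 4 of 22 tested members higher (median 0.26). Lgals1 was at 4.43, 3.33, 1.53 and 4.55 TPM in NFD and 29.2, 24.9, 16.5 and 32.7 TPM in HFD (adjusted p = 0.00554), with the lowest HFD value far above the highest NFD value. S100a10 (64.6 to 101 TPM in NFD and 106 to 148 TPM in HFD, adjusted p = 0.0193) and Anxa2 (3.61 to 4.36 TPM in NFD and 5.98 to 7.3 TPM in HFD, adjusted p = 0.0295) form 1 protein complex, and both rose. The fourth was the galectin-related Lgalsl (1.8 to 2.26 TPM in NFD and 2.61 to 5.09 TPM in HFD, adjusted p = 0.0449). Cell death genes had 4 of 47 higher, among them the proapoptotic Bcl2 family members Bmf (0.85 to 1.66 TPM in NFD and 2.17 to 3.61 TPM in HFD, adjusted p = 0.0227) and Bak1 (3.6 to 5.09 TPM in NFD and 6.08 to 6.72 TPM in HFD, adjusted p = 0.029). The death receptor Fas (8.12 to 9.15 TPM in NFD and 10.4 to 16.1 TPM in HFD, adjusted p = 0.0347) and Trp53inp2 (76.02 to 129 TPM in NFD and 168 to 199.5 TPM in HFD, adjusted p = 0.0368) were the others. Trp53 did not pass (9.85 to 11.2 TPM in NFD and 8.91 to 10.2 TPM in HFD, adjusted p = 0.448). Of 60 tested cilium and centrosome genes 2 rose, a share near the 2.19% of all genes. They were Fbf1 and Bbs4 (0.79 to 1.05 TPM in NFD and 1.37 to 1.75 TPM in HFD, adjusted p = 0.0337). Fbf1, at the base of the cilium, was at 1.89, 3.98, 1.63 and 3.47 TPM in NFD and 14.5, 7.52, 11.98 and 20.2 TPM in HFD (adjusted p = 0.0112). Ten1, a telomere capping protein whose gene lies 30584 bases from Fbf1, was at 20.6, 29.8, 17.2 and 26.2 and 44.3, 45.6, 52.8 and 38.6 TPM (adjusted p = 0.00942; chosen after its values were seen). Both neighbours had separate groups. In lysosomes Ppt1, which removes palmitate from proteins, rose (8.5 to 9.46 TPM in NFD and 12.2 to 14.7 TPM in HFD, adjusted p = 0.00942). Kept in all 8 leave-outs were Lgals1, Fbf1, Ten1 and Ppt1. The others were kept for S100a10 in 4 (up to 0.0708 without HFD replicate 4), Anxa2 in 1 (up to 0.096 without HFD replicate 1), Lgalsl in 1 (up to 0.141 without HFD replicate 1), Bmf in 3 (up to 0.0791 without HFD replicate 1), Bak1 in 2 (up to 0.0915 without HFD replicate 4), Fas in 1 (up to 0.104 without HFD replicate 1), Trp53inp2 in 1 (up to 0.104 without HFD replicate 1) and Bbs4 in 1 (up to 0.124 without HFD replicate 1).

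Genes that fell were fewer, and no functional list had more than 2 of them. Rnf145, a ubiquitin ligase of sterol regulation in the endoplasmic reticulum, was at 11.7 ± 1.31 TPM (SD, n = 4) in NFD and at 5.56, 8.56, 5.73 and 5.27 TPM in HFD (log2 change -0.82 ± 0.14 SE, adjusted p = 0.00855). HFD replicate 2 lay apart from the other 3 and still under the NFD range. Btg3, an antiproliferative protein, was at 7.87, 8.21, 6.15 and 4.15 TPM and 3.02, 2.01, 2.64 and 1.98 TPM (log2 change -1.13 ± 0.19 SE, adjusted p = 0.00895), and Cib3, a calcium and integrin binding protein, at 2.69, 5.52, 2.92 and 2.49 and 1.02, 0.99, 1.21 and 0.49 TPM (log2 change -1.16 ± 0.18 SE, adjusted p = 0.00553). Igfbp2, an IGF-binding protein secreted by liver, was at 290.2, 190.4, 474 and 364 TPM in NFD and 125, 128, 184 and 90.6 TPM in HFD (adjusted p = 0.0234). Itga5, the alpha chain of the fibronectin receptor, ranged over 8.67 to 15.7 TPM in NFD and 5.22 to 7.25 TPM in HFD (adjusted p = 0.0299) and Tuba4a, an alpha tubulin, over 66.9 to 108 TPM in NFD and 43.4 to 57.8 TPM in HFD (adjusted p = 0.0295). The calls of Rnf145, Btg3 and Cib3 were kept in all 8 leave-outs, against Igfbp2 in 3 (up to 0.0752 without HFD replicate 1), Itga5 in 5 (up to 0.102 without HFD replicate 4) and Tuba4a in 5 (up to 0.105 without HFD replicate 4).

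The 7 lower genes that come next were chosen after their values were seen and stand for no list. Mrto4 (18.9 to 20.99 TPM in NFD and 13.6 to 17 TPM in HFD, adjusted p = 0.0426), Noc4l (4.34 to 6.14 TPM in NFD and 2.68 to 3.74 TPM in HFD, adjusted p = 0.0498), Grwd1 (5.83 to 7.96 TPM in NFD and 3.58 to 5.33 TPM in HFD, adjusted p = 0.0456) and Sdad1 (6.0 to 8.22 TPM in NFD and 4.03 to 5.46 TPM in HFD, adjusted p = 0.0434) are factors of ribosome assembly. Prmt3 methylates a ribosomal protein (5.8 to 7.1 TPM in NFD and 2.75 to 4.38 TPM in HFD, adjusted p = 0.0381) and Pabpc4 binds poly(A) tails (20.1 to 21.6 TPM in NFD and 13.2 to 15.1 TPM in HFD, adjusted p = 0.0141). Dhx33, a nucleolar RNA helicase, fell as the 1 of 50 tested helicases (10.6 to 15.5 TPM in NFD and 7.99 to 9.39 TPM in HFD, adjusted p = 0.04995). In these 7 genes every HFD library lay under every NFD library. The 8 leave-outs kept Mrto4 in 1 (up to 0.141 without HFD replicate 1), Noc4l in 1 (up to 0.146 without HFD replicate 4), Grwd1 in 2 (up to 0.124 without HFD replicate 2), Sdad1 in 2 (up to 0.13 without HFD replicate 4), Prmt3 in 1 (up to 0.116 without HFD replicate 4), Pabpc4 in 7 (up to 0.0515 without HFD replicate 4) and Dhx33 in 1 (up to 0.149 without HFD replicate 1). Several lists had 0 calls and medians below 0, namely splicing factors and RNA-binding proteins (74 tested, median -0.16), enzymes of DNA and histone modification (62 tested, median -0.13) and cytosolic heat shock genes (40 tested, median -0.16). Of the 80 tested cytosolic ribosomal proteins 0 passed, while 38 were lower and 0 higher at an unadjusted p under 0.05, against 7.3% of all genes lower (median -0.23). Calls among the ribosomal proteins depended on NFD replicate 4, without which 24 were lower, and on scaling, with 7 lower under median-of-ratios scaling and 15 under quantile normalization.

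**Figure D4:**
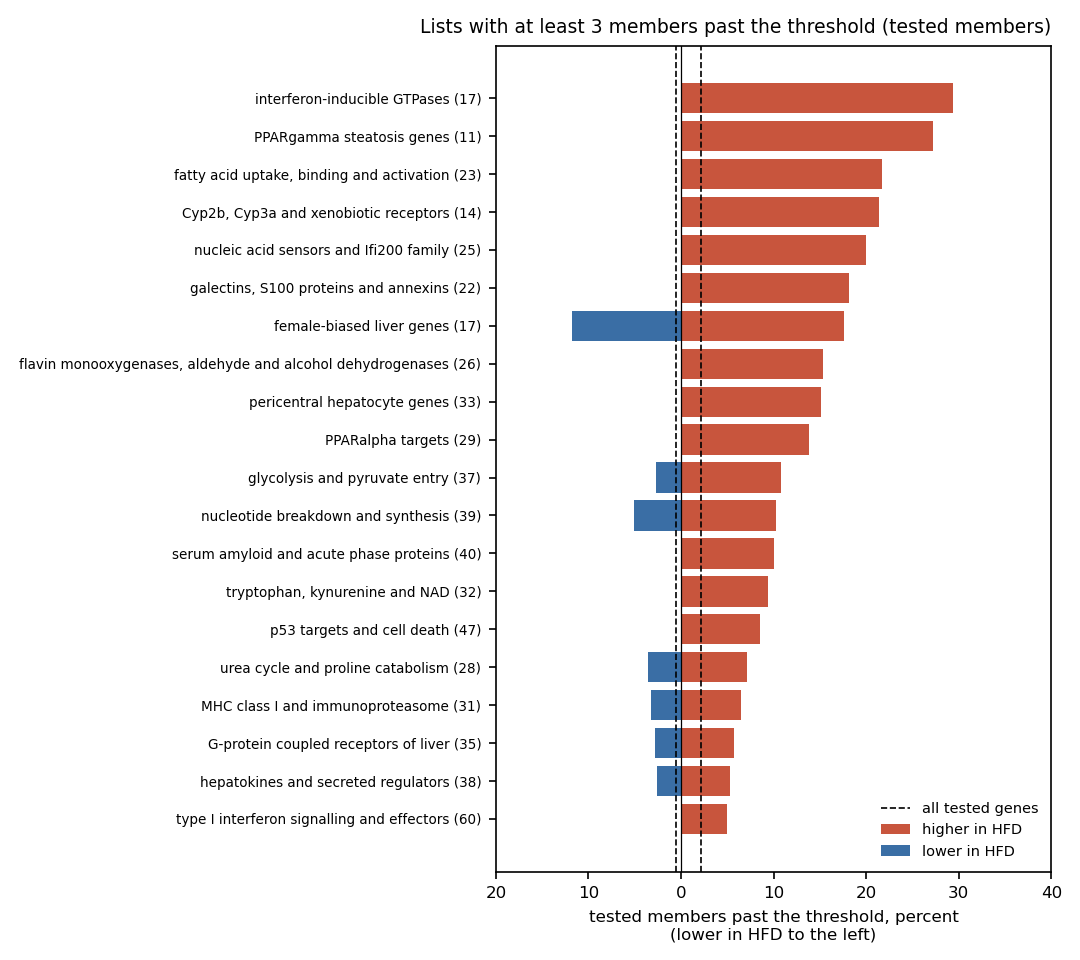
Share of the tested members of a list that passed an adjusted p of 0.05 (horizontal axis, percent; higher in HFD to the right, lower to the left), for lists with at least 3 members past the threshold; the number tested is in brackets and dashed lines mark all genes, 2.19% and 0.589%. Interferon-inducible GTPases, with 5 of 17, have the longest bar, and the lists differ in size.

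Neighbouring genes accounted for some of the calls. Among the 310 called genes with a position, 16 pairs lay within 100000 bases of each other (31 genes), and in 15 of the pairs both genes passed in 1 direction. Besides the pairs given above, Saa3 and Saa4 as well as Acsm1 and Acsm3 are such pairs on chromosome 7. The exception was Sdsl, which fell, beside Slc8b1, a mitochondrial sodium and calcium exchanger that rose (10.9 to 13.7 TPM in NFD and 17.7 to 26.5 TPM in HFD, adjusted p = 0.0143, kept in 7 of the 8 leave-outs). Whether overlapping or antisense genes were separated by strand was not stated in any label or header.

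Transcripts of protein-coding genes gave 101 higher and 12 lower of 18183 tested, 0.555% and 0.066%, together 113 or 0.621%. Of these 95 belonged to genes called in the same direction, and 18 to genes that did not pass as a whole. Lonp2 encodes a protease of peroxisomes. Its transcript ENSMUST00000163987 was listed at 0 in all 4 NFD libraries and at 4.57, 6.24, 3.69 and 14.4 TPM in HFD (adjusted p = 0.00318 over all mRNA transcripts). The same transcript was listed at 0 in the 4 N-acetylcysteine libraries, and the whole gene did not pass (log2 change 0.35, adjusted p = 0.284). This transcript thus met the floor through the HFD libraries alone, and the separation of its groups followed from the filter. Bbox1 makes carnitine in the final step. Its transcript ENSMUST00000133608 was at 5.47, 5.37, 3.72 and 6.14 TPM in NFD and 13.7, 14.4, 13.2 and 12.2 TPM in HFD (log2 change 1.23 ± 0.20 SE, adjusted p = 0.0249), while the gene as a whole did not pass (adjusted p = 0.0869). The count of 113 transcripts was 12 without HFD replicate 4, 17 without HFD replicate 1, 23 without NFD replicate 1 and 25 without HFD replicate 2. It was 59 and 65 without NFD replicates 4 and 3.

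The balance of transcripts within a gene was tested for 12169 transcripts of 4480 genes. With limma 0 passed, the smallest adjusted p being 0.181, and 955 had an unadjusted p under 0.05. The 2 measured mRNA transcripts of Cyp2c40 came closest after Lonp2. Shares here are of the summed TPM of the mRNA transcripts of a gene, and the TPM of Cyp2c40 in the gene table is larger than this sum. Its main one, ENSMUST00000160476, made up 82.4%, 86.6%, 95.4% and 94.4% in NFD and 57.1%, 57.7%, 67.7% and 58.7% in HFD. Bbox1 ENSMUST00000133608 made up 13.3%, 13.3%, 11.3% and 16.5% in NFD and 25.1%, 24.9%, 25.3% and 24.4% in HFD. For Npm1, a nucleolar chaperone, ENSMUST00000093201 made up 25.4% ± 3.27 (SD, n = 4) in NFD and 12.98% ± 2.83 (SD, n = 4) in HFD. In these 3 the libraries of the groups did not overlap. Estimates of single transcripts divide shared reads, and their error is not in the tables.

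**Figure D5:**
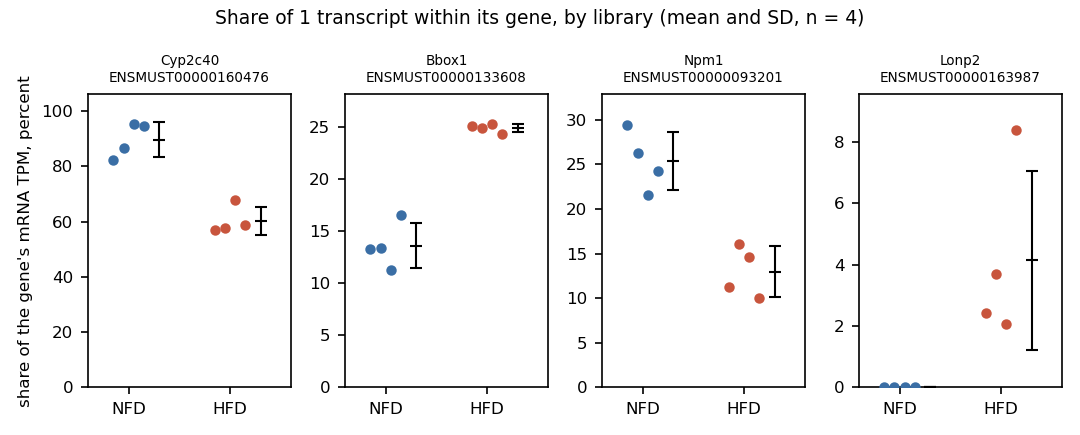
Share of 1 transcript in the mRNA TPM of its gene (vertical axes, percent, from 0) for Cyp2c40, Bbox1, Npm1 and Lonp2; points are libraries, bars the mean and SD (n = 4 per group). The HFD and NFD points are apart in all 4, and the Lonp2 transcript is listed at 0 in each NFD library. The Lonp2 transcript met the floor through its HFD libraries alone.

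Long non-coding RNAs were fitted on log2(TPM + 0.1), and 7 of 25205 tested transcripts passed, 4 higher and 3 lower, or 0.0278%, 0.0159% and 0.0119%. At an unadjusted p under 0.05 there were 2021. A non-coding transcript of the Hes1 gene, ENSMUST00000161676, was listed at 0 in all NFD libraries and stood at 1.89, 1.29, 1.23 and 0.76 TPM in HFD (adjusted p = 7.68e-04). It was also listed at 0 in the N-acetylcysteine libraries. The transcript thus met the floor through the HFD libraries alone, and the separation of its groups followed from the filter. Hes1, a target of Notch signalling, did not pass as a gene (adjusted p = 0.331). MSTRG.1351.2, a transcript assembled by the authors, was abundant, at 18.1, 19.6, 11.98 and 24.1 TPM in NFD and 55.7, 58.0, 53.3 and 48.0 TPM in HFD (adjusted p = 0.0319). The groups of MSTRG.1351.2 were separate. The Hes1 transcript kept its call in all 8 leave-outs, which used the same filter, and MSTRG.1351.2 in 1 (up to 0.167 without HFD replicate 2). Leaving out 1 library gave 2 to 5 calls in all, 2 without HFD replicate 2, 3 without NFD replicates 3 or 4 or HFD replicates 1 or 3, and 4 without HFD replicate 4.

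The authors' deposited table of mRNA transcripts lists 1110 for this comparison, 277 of them at an adjusted p under 0.05. Of those 277, 55 were among the 113 called here, which is 19.9% of theirs and 48.7% of these. Of the 277, 184 met the floor and were tested here. In 99 of the 277 the mean was under 1 TPM in both groups or the transcript had not met that floor. Dio1, Sema5b and Lect2 had the smallest adjusted p-values in the authors' deposited table.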

How the data were processed

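Liver RNA of 12 samples was sequenced, and the sample labels gave each sample's group and replicate number. Per the submitters' processing notes, the tools were fastp, HISAT and RSEM and the build was GRCm38. Versions, settings and the step each tool served were not stated in any source used here. The deposited gene, mRNA transcript and lncRNA transcript tables hold TPM per library, made by the authors. TPM keeps no read counts and has a fixed total, so depth is unknown and each value depends on all others of its library. Tables of the authors' own comparisons, as deposited, give for each transcript a ratio of the groups, its log2, and p-values before and after adjustment. No fit used these columns, and the tool behind them was not stated. No column of per-sample values was left unused (0).

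Genes and mRNA transcripts with at least 1 TPM in at least 4 of 12 libraries were fitted on log2(TPM + 1), and lncRNA transcripts with at least 0.1 TPM on log2(TPM + 0.1). With limma 3.58.1 under R 4.3.3, a model of 3 group means over the 12 libraries was fitted by lmFit, and eBayes was run with its trend and robust options. Tests were two-sided, and the Benjamini-Hochberg adjustment ran over each whole table, with a threshold of 0.05. The fit was tested on simulated data, independent normal values with no effect shared across a library. That test therefore does not bear on how the calls depended on single libraries. Single values per library were compared by exact permutation tests, whose smallest p with 4 against 4 is 0.0286. Promoter windows came from RefSeq, build GRCm38.p6, and positions from its gene table of the same build.

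Members and gene lists were chosen with earlier results of these data known. Named genes were those of largest change, smallest p or highest level among genes past the threshold, up to 6 members of each list that passed together with its first member as a reference, and up to 3 members of each gene family that passed. Others are said to be chosen after their values were seen. Alternatives were another pseudocount, other filters on low values, 8 libraries only, eBayes without trend, the replicate number as a block, 3 other scalings, array weights and leaving out each library in turn. The comparisons with N-acetylcysteine were not used here, and some members that passed are counted but not reported singly.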

Additional observations from a re-analysis of the deposited data

Results flagged for a closer look

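In each group of 4 libraries, the gap between the highest or lowest library and its nearest neighbour was divided by the range of the group, and values above Dixon's critical value for 4 samples are given here. Of 440 groups of the 220 genes, transcripts and library values examined, 24 passed. Chance alone gives about 1 in 20 groups.

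NFD replicate 3 accounted for 7 of the 24. It was highest for Slc22a30 (132, 133, 225 and 139.7 TPM in NFD, ratio of gap to range 0.895), Fabp2 (44.3, 46.6, 82.1 and 48.1 TPM, 0.867), Cdh1 (1.5, 1.95, 7.98 and 1.69 TPM, 0.871) and, within a narrower range, Apom (159, 160.1, 173 and 158 TPM, 0.837). It was lowest for Ppt1 (9.46, 9.35, 8.5 and 9.39 TPM, 0.89) and H2-Q1 (0.66, 0.7, 0.17 and 0.77 TPM, 0.845). The lncRNA transcript XR_872040.2 was listed at 0 in the other 3 NFD libraries and at 0.75 TPM in NFD replicate 3 (1.0), and at 5.86, 4.88, 4.88 and 3.45 TPM in HFD. NFD replicate 2 was highest for Pdk4 (0.97, 1.57, 0.93 and 0.99 TPM, 0.893) and lowest for Anxa2 (4.34, 3.61, 4.36 and 4.3 TPM, 0.925) and Rab29 (5.69, 4.44, 5.68 and 5.52 TPM, 0.876). NFD replicate 1 was highest for Atf4 (67.5, 47.8, 47.6 and 49.1 TPM, 0.911) and Cfd (0.58, 0.05, 0.05 and 0.12 TPM, 0.842), and NFD replicate 4 for Bbs4 (0.83, 0.82, 0.79 and 1.05 TPM, 0.837).

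Among the HFD libraries, replicate 4 was highest for Cfd (4.87, 4.74, 6.63 and 32.7 TPM in HFD, 0.839) and had the lowest mitochondrial share of TPM (0.846). It was the 1 HFD library in which the Ermard transcript ENSMUST00000227786 was not listed at 0, at 0.43 TPM (1.0), against 1.08, 0.99, 1.18 and 0.69 TPM in NFD. HFD replicate 3 was lowest for Lect2 (166, 166, 160.4 and 166 TPM, 0.952) and Lgalsl (5.09, 4.81, 2.61 and 4.63 TPM, 0.85) and had the lowest lncRNA share (0.836). In HFD replicate 3 the transcripts ENSMUST00000160476 and ENSMUST00000162507 of Cyp2c40 made up 67.7% and 32.3% of their summed TPM, against 57.1% and 42.9% in HFD replicate 1 (0.845 for each, since they are the only 2 measured mRNA transcripts). HFD replicate 2 was highest for Rnf145 (5.56, 8.56, 5.73 and 5.27 TPM, 0.832) and lowest for Fitm1 (35.1, 25.8, 34.7 and 35.7 TPM, 0.913), and HFD replicate 1 was highest for Aldh3a2 (293, 258, 261 and 259 TPM, 0.927).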

How the results depend on the processing

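The count of 316 genes depended on the filter and on single libraries. Without a filter on low values 168 genes passed, 145 higher and 23 lower in HFD, and limma array weights gave 884, 584 higher and 300 lower. Leaving out 1 library gave 90 to 298 genes, 76 to 245 higher and 11 to 65 lower. Median-of-ratios scaling gave 119 lower genes and quantile normalization 160, against 67. The count of mRNA transcripts, 113 with all libraries, was 24 with no filter on low values and 12 to 113 with 1 library left out. The count of lncRNA transcripts, 7 with all libraries, was 0 at a floor of 0.5 TPM and 2 to 5 with 1 library left out. The balance of transcripts within genes gave 0 calls, 1 with a pseudocount of 0.1, 7 with no filter and 0 to 2 with 1 library left out, 2 of them without NFD replicate 4. The difference of the mitochondrial share ranged from -0.287 to 0.888 points with 1 library left out and was negative without NFD replicate 1 (-0.0994), NFD replicate 3 (-0.287), HFD replicate 1 (-0.0175) or HFD replicate 2 (-0.0919). The cause of these changes was not tested. For named genes and transcripts no direction was reversed under any alternative run. Of the 215 named genes and transcripts 186 had passed, and calls were lost in 117 of these without HFD replicate 1, in 116 without HFD replicate 4, in 104 without HFD replicate 2 and in 45 to 89 without each of the others. Depth is unknown, so no limit from counting can be given.

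No label says whether the replicate numbers pair the samples, and 4 libraries per group cannot settle it. Deviations of HFD and NFD libraries with the same number from their group means correlated at -0.0113, 0.1786, -0.1735 and -0.1284 over genes, and not every library correlated best with its own number. With the replicate number as a block 225 genes passed, 183 higher and 42 lower, together with 18 mRNA transcripts and 1 lncRNA transcript, and 61 of the 186 named calls were lost.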

Other observations

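Several genes with large differences between the groups did not pass the test, and those of this paragraph were chosen after their values were seen. Serpina1e, an alpha-1 antitrypsin gene with close paralogs, was at 9282, 9694, 8371 and 9766 TPM in NFD and 1166, 1147, 6507 and 2786 TPM in HFD (log2 change -2.06 ± 0.64 SE, adjusted p = 0.12 with limma). HFD replicate 3 lay nearest to NFD and the groups did not overlap. C6, a component of the membrane attack complex of complement, was at 176, 164, 168 and 155 TPM in NFD and 51.9, 60.1, 128 and 109 TPM in HFD (log2 change -1.02 ± 0.36 SE, adjusted p = 0.161 with limma). Angptl8, an insulin-responsive inhibitor of lipoprotein lipase, was at 163, 177, 98.4 and 153 TPM in NFD and 38.5, 61.5, 85.02 and 21.2 TPM in HFD (log2 change -1.64 ± 0.52 SE, adjusted p = 0.122 with limma), lowest in HFD replicate 4. Mfsd2a, a carrier of lysophospholipids, was at 22.8, 37.5, 4.04 and 18.5 TPM in NFD and 45.7, 66.98, 69.5 and 63.4 TPM in HFD (log2 change 1.83 ± 0.59 SE, adjusted p = 0.135 with limma), with NFD replicate 3 far under the other NFD libraries. Gdf15, a stress-induced hormone, ranged over 3.03 to 4.71 TPM in NFD and 7.58 to 13.7 TPM in HFD (limma adjusted p = 0.239), Serpina7, a binding protein of thyroid hormones, over 10.7 to 23.3 TPM in NFD and 27.9 to 52.7 TPM in HFD (limma adjusted p = 0.0761) and Gstp2, a glutathione S-transferase, over 41.7 to 86.3 TPM in NFD and 13.3 to 33.7 TPM in HFD (limma adjusted p = 0.246). In these genes too the groups did not overlap.

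NFD replicate 3 also differed from the other NFD libraries in genes of nitrogen and glucose metabolism, which were chosen after their values were seen. Mat1a, which makes S-adenosylmethionine in hepatocytes, was at 1739, 1438, 3557 and 1680.0 TPM in NFD and 1745, 1344, 1264 and 1421 TPM in HFD. Apoa4, an apolipoprotein that varies with feeding, was at 44.7, 84.2, 1307 and 95.8 TPM in NFD. G6pc, the enzyme that releases glucose, was at 32.7, 225, 5.1 and 25.5 TPM in NFD. It was lowest in NFD replicate 3, while NFD replicate 2 lay furthest from the others. Over all tested genes NFD replicate 3 stood far above the other 3 in 148 and far below them in 70, NFD replicate 4 in 65 and 172, HFD replicate 2 in 148 and 24, and HFD replicate 4 in 27 and 158, by the ratio of gap to range used above.

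Mgmt, a DNA repair protein that removes alkyl groups from guanine, kept its call without any 1 of the 8 libraries and ranged over 2.44 to 3.24 TPM in NFD and 4.53 to 6.1 TPM in HFD (limma adjusted p = 0.0102). It was chosen after its values were seen.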
